A study of Rattus norvegicus with 20 samples.

Results

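The genes described here are 10 genes of the endoplasmic reticulum (ER) stress and ATF4 response, Atf4, Ddit3, Xbp1, Asns, Trib3, Chac1, Herpud1, Hyou1, Pdia4 and Atf6, taken by their symbols from the 32495 named gene rows of a rat gastrocnemius muscle count table. The rule used the symbols alone and no measured value, though the members were chosen with earlier results of these data known. Each symbol stood on a single row. Female Fischer 344 rats carrying a Ward colorectal carcinoma were sampled in 3 groups. TUMOUR STD animals received no chemotherapy and ate the control diet. CHEMO STD animals were given repeated cycles of CPT-11 (irinotecan) and then 5-FU on the control diet, and CHEMO FO animals had the same drugs with a fish oil diet that started with the chemotherapy. All 3 groups carried the tumour, so no comparison with tumour-free muscle was possible, and diet was compared only under chemotherapy. Each library was made from RNA of whole muscle, in which fewer cells of a type and less RNA per cell cannot be told apart.

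When unfolded proteins gather in the ER, 3 membrane sensors (PERK, IRE1 and ATF6) start the unfolded protein response. PERK, like the kinases that sense amino acid shortage, slows translation and favours synthesis of the transcription factor ATF4, whose targets supply amino acids and, under lasting stress, favour cell death. IRE1 splices the Xbp1 mRNA, and cleaved ATF6 moves to the nucleus, and both raise the genes of ER folding and degradation. Much of this regulation is by translation, splicing or cleavage, none of which gene counts measure.

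The promoters that RefSeq gives for these genes (rat build GRCr8, 250 bases before the transcription start to 50 after it) were read to show the elements through which the pathway acts. Of the 10 genes, 9 had a promoter in the table, and Hyou1 had a pair. The motifs searched on both strands were the ER stress response element (ERSE, CCAAT and CCACG with 9 bases between), the ERSE-II (ATTGG and CCACG with 1 base between), the core of the unfolded protein response element (UPRE, TGACGTGG) and the C/EBP-ATF response element (TGATGNAA). Xbp1, Herpud1, Hyou1 and Chac1 are printed because they hold such an element and serve different arms of the response. Capitals mark the fixed letters of the motifs, on either strand.
Xbp1, chr14:84604373-84604672, + strand: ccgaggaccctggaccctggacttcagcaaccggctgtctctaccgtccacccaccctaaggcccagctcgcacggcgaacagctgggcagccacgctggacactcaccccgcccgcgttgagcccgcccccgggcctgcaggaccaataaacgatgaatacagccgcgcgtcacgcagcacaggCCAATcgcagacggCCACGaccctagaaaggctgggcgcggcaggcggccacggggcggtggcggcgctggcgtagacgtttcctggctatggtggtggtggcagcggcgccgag
Herpud1, chr19:10614658-10614957, - strand: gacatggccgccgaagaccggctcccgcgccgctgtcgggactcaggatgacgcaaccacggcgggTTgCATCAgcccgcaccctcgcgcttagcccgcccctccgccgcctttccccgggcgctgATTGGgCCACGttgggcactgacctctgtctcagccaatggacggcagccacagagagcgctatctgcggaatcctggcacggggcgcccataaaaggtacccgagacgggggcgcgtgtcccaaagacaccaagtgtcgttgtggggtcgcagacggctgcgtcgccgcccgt
Hyou1, chr8:53602632-53602931, + strand: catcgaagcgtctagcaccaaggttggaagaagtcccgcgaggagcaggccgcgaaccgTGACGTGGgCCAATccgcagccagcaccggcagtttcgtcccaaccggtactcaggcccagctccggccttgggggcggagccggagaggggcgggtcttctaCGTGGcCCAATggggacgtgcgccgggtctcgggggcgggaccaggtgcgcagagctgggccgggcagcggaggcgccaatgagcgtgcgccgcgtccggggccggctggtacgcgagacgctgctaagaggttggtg
Chac1, chr3:126795881-126796180, + strand: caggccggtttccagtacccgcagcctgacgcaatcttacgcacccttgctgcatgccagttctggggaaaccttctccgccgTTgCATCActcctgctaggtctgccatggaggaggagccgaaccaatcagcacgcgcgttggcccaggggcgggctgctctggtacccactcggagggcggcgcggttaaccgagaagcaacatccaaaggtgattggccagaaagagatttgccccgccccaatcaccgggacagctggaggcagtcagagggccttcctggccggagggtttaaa

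The ERSE stood once, in Xbp1, and 0.0657% of the 33469 promoters of the table hold one. The ERSE-II stood in Herpud1 and, at 2 places, in Hyou1, against 0.0508% of all promoters. The first Hyou1 site overlapped a UPRE core, which 0.595% of promoters hold. The C/EBP-ATF response element stood in Chac1, Herpud1 and Trib3, and it is the commonest of the 4, in 3.98% of promoters. A motif match describes the sequence only, and binding was not measured.

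Levels below are CPM, counts divided by the library size after TMM scaling, and they are compared between samples for a gene and not between genes. Sequencing depth was 3020821 to 10857477 counts on named genes per library. CHEMO STD replicates 1 and 2 differed by less than the spread of any other pair within a group (chi-square per gene 2.23 against 13.7 to 255 in 58 other pairs) and were summed to 1 sample, which left 5 TUMOUR STD, 6 CHEMO STD and 8 CHEMO FO samples. One library stood apart before any comparison was made, CHEMO FO 18. It held the highest level of 18.6% of the 11716 genes tested, against 2.03% to 12.1% in the other samples. It had the lowest summed level of the 7 skeletal muscle fibre markers in the table (126183 CPM against 177660 to 251271 in the other samples), the highest of the 8 macrophage markers (689 CPM against 184 to 426) and the lowest of the 6 fibroblast markers (1718 CPM against 2118 to 13336). Every muscle fibre marker had counts in every sample. Values without this library are given beside the CHEMO FO results that it moves, and for Hyou1 in CHEMO STD versus TUMOUR STD.

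Means are given ± SD, and log2 fold changes ± SE are from edgeR's quasi-likelihood fit of all 3 groups. A gene was called at the thresholds of the study's methods, an unadjusted p below 0.05 with at least a 1.5-fold change. Of the 10 genes, 9 passed the filter on low counts. Trib3 did not, with 0 to 21 counts per sample.

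The transcription factor genes come first. Atf4, the master regulator of the amino acid and integrated stress response, measured 237, 230.1, 276, 314 and 295 CPM in TUMOUR STD replicates 8 to 12. In CHEMO STD it ran from 229 over a median of 254 to 287 CPM, and in CHEMO FO from 276 over 290.5 to 718 CPM. The 718 CPM of CHEMO FO 18 lay 2.46 times above the mean of the other 7 fish oil samples, which kept within 276 to 316 CPM.

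Atf6, the membrane-bound sensor that is itself a transcription factor, measured 64.8, 70.8, 65.2, 55.7 and 68.3 CPM in TUMOUR STD. CHEMO STD samples lay between 51.2 and 73.0 CPM with a median of 59.7, and CHEMO FO samples between 49.6 and 101 CPM with a median of 58.6. The groups overlapped nearly whole, and the 101 CPM of CHEMO FO 18 was the sole level above 73.0.

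Xbp1, the target of IRE1 splicing and a regulator of secretory capacity, measured 43.7, 49.9, 68.7, 44.6 and 69.6 CPM in TUMOUR STD. Its CHEMO STD range was 43.1 to 73.0 CPM (median 47.4) and its CHEMO FO range 37.6 to 75.9 CPM (median 54.8). In CHEMO STD, 5 of the 6 samples lay within 43.1 to 47.9 CPM and the summed replicates 1 and 2 stood above them. The samples with the most fibroblast marker signal, TUMOUR STD 10, TUMOUR STD 12 and CHEMO STD 1 and 2 (11178 to 13336 CPM over the list, against 1718 to 7061 elsewhere), were all high in Xbp1, and the part of connective tissue in this was not tested. CHEMO FO 16 (75.9 CPM) and CHEMO FO 18 (72.2 CPM) were as high with less of that signal.

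Ddit3, which encodes CHOP, the factor tied to cell death under lasting ER stress, measured 17.5, 11.6, 8.14, 16.5 and 7.08 CPM in TUMOUR STD. It ran from 7.64 to 19.04 CPM in CHEMO STD (median 15.0) and from 8.01 to 18.9 CPM in CHEMO FO (median 13.5). Each group spanned nearly the whole range, and CHEMO FO 18, at 11.3 CPM, was 13th of the 19 samples.

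Among the targets of ATF4, Chac1, a glutathione-degrading enzyme, varied most among those with substantial counts. It measured 27.0, 33.9, 36.8, 6.13 and 41.8 CPM in TUMOUR STD, 13.1 to 51.2 CPM in CHEMO STD (median 33.8) and 18.99 to 129 CPM in CHEMO FO (median 36.3). The highest sample was CHEMO FO 17 (129 CPM) and the next was CHEMO FO 18 (85.9 CPM), while the other 6 fish oil samples stayed within the range of the other groups. From lowest to highest sample the level differed 21.0-fold, a ratio that did not involve CHEMO FO 18.

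Asns, asparagine synthetase, was low throughout, with 1 to 64 counts per sample. It measured 1.21, 0.496, 6.20, 1.45 and 2.48 CPM in TUMOUR STD, 0.305 to 5.30 CPM in CHEMO STD (median 1.31) and 0.252 to 4.08 CPM in CHEMO FO (median 1.60). Its highest samples were TUMOUR STD 10, CHEMO STD 7 and CHEMO FO 18, one in each group. The first carried 518 CPM over 8 keratinocyte markers (111 CPM in CHEMO FO 16 and 8.05 CPM or less in all others). CHEMO STD 7 carried 52.4 CPM over 8 B and plasma cell markers (1.32 CPM or less in all others). The part of these cells in the Asns levels was not tested.

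Trib3, a pseudokinase that restrains ATF4 signalling, measured 1.39, 1.69, 1.45, 1.29 and 2.12 CPM in TUMOUR STD. It ran from 0.525 to 1.77 CPM in CHEMO STD (median 0.730) and from 0 to 1.51 CPM in CHEMO FO (median 0.973). The 0 of CHEMO FO 19 allows a level of up to 0.719 CPM, the value of 3 counts, by counting error alone. In TUMOUR STD all 5 samples were above 1.2 CPM, a level that 1 of 6 CHEMO STD samples reached.

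The genes of ER proteins, Hyou1, Pdia4 and Herpud1, each had at least 98 counts in every sample. Hyou1, an ER chaperone of the heat shock protein family induced by low oxygen, measured 59.6, 59.3, 80.6, 53.4 and 67.6 CPM in TUMOUR STD. CHEMO STD samples ran from 41.6 to 64.6 CPM (median 50.6) and CHEMO FO samples from 46.4 to 129 CPM (median 65.8). Without CHEMO FO 18, whose 129 CPM was 2.10 times the mean of the others, the fish oil samples reached 69.9 CPM.

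Pdia4, a protein disulfide isomerase, measured 38.8, 29.2, 42.1, 32.0 and 47.1 CPM in TUMOUR STD, 24.4 to 43.8 CPM in CHEMO STD (median 32.1) and 25.5 to 99.4 CPM in CHEMO FO (median 38.6). Again CHEMO FO 18 stood alone, at 2.76 times the mean of the other 7, which lay between 25.5 and 42.4 CPM.

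Herpud1, an ER membrane protein of the degradation machinery, had the lowest ratio of highest to lowest level across all 19 samples, 1.65, but without CHEMO FO 18 Atf4 (1.38) and Atf6 (1.47) were lower. It measured 96.2, 102, 157, 112 and 144 CPM in TUMOUR STD, 98.6 to 149 CPM in CHEMO STD (median 118) and 120.1 to 159 CPM in CHEMO FO (median 136). Every fish oil sample was above 120 CPM, a level passed by 2 of 5 TUMOUR STD and 3 of 6 CHEMO STD samples. CHEMO FO 18, at 128 CPM, was 9th of 19 and so not set apart in this gene.

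**Figure D1:**
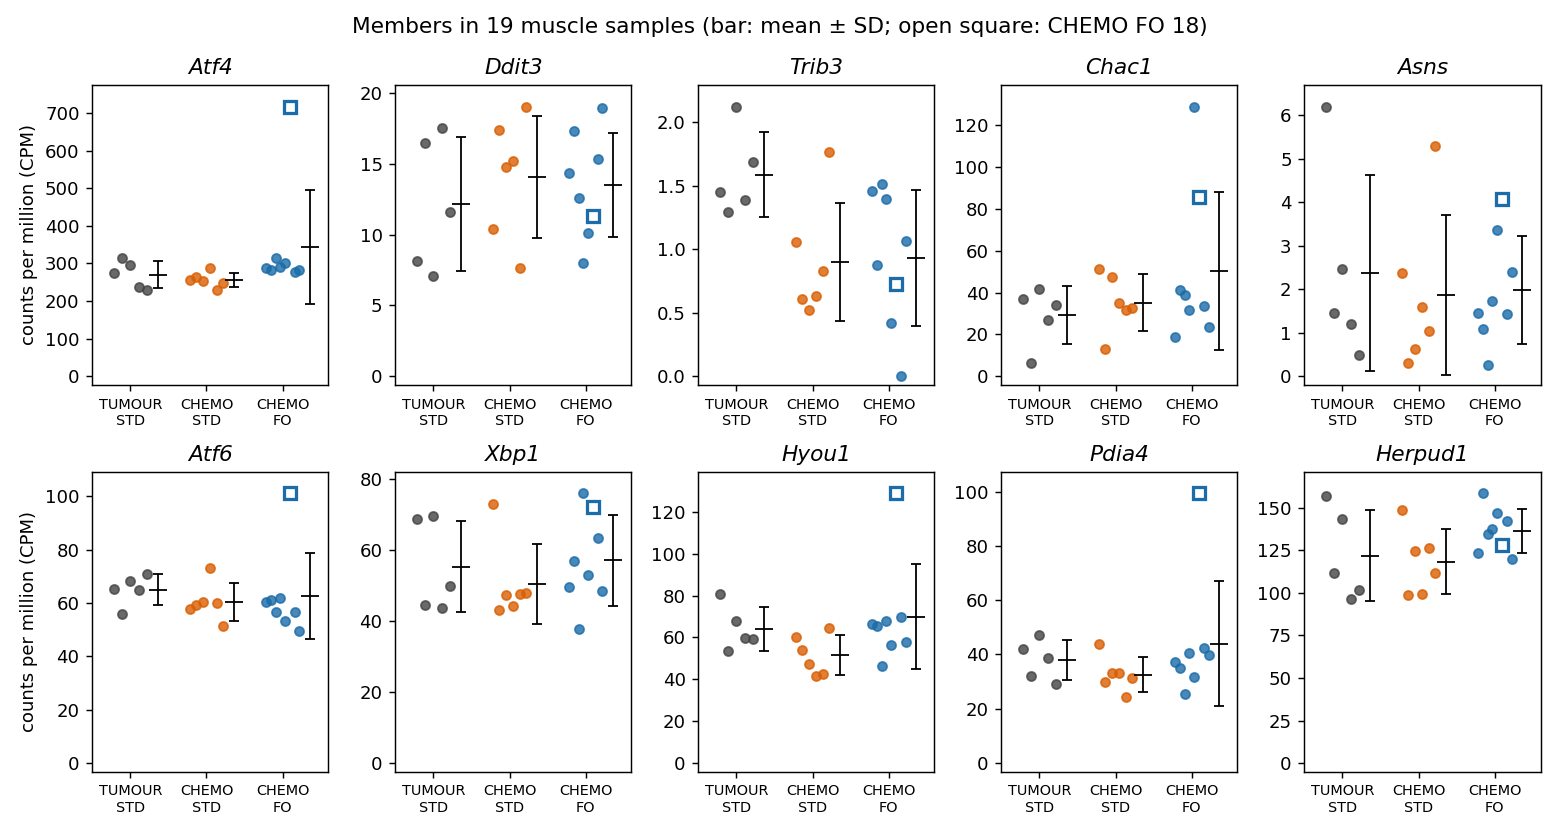
Each panel shows a gene's level in CPM (linear axis) in the 19 samples by group, with 1 point per sample and the group's mean ± SD beside it, and an open square for CHEMO FO 18. The square stands alone above all others in Atf4 (718 CPM), Atf6 (101 CPM), Hyou1 (129 CPM) and Pdia4 (99.4 CPM), and inside the range of its group in Ddit3, Trib3, Xbp1, Chac1 and Herpud1.

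The first comparison, CHEMO STD versus TUMOUR STD, asks what chemotherapy changed in tumour-bearing rats on the control diet. No gene of the 9 tested was called (0 genes), where 2.38% of all 11716 genes tested were. Of the 9, 7 were lower after chemotherapy and 2 higher, and the median log2 fold change was -0.11 against -0.00 over all genes. The largest differences were those of Asns (-0.34 ± 0.609), Hyou1 (-0.31 ± 0.20), Chac1 (0.29 ± 0.449), Pdia4 (-0.21 ± 0.255) and Ddit3 (0.20 ± 0.262). Atf4 differed by -0.08 ± 0.203, Xbp1 by -0.12 ± 0.183, Atf6 by -0.11 ± 0.152 and Herpud1 by -0.04 ± 0.14. Hyou1 had the lowest adjusted p of the 9, 0.728 in edgeR, with an unadjusted edgeR p of 0.136. CHEMO FO 18 is outside this comparison, but it was part of the fit of all groups. Without it, Hyou1 differed by -0.30 with an unadjusted edgeR p of 0.0430. That change was below the fold threshold, so Hyou1 was still not called.

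The ranges of the groups overlapped for each of the 10 genes in this comparison, and over all genes tested 0.495% had ranges that did not. An exact permutation test of mean log2 CPM, two-sided and run for all 10 genes in each of 3 comparisons (30 tests, not adjusted for their number), gave its lowest p within this comparison for Trib3. Trib3 was lower by 0.71 on the log2 scale in CHEMO STD (exact permutation p = 0.0260 over 462 arrangements), with 1.59 ± 0.333 CPM (n = 5) against 0.903 ± 0.464 CPM (n = 6). The p ran from 0.0079 to 0.0619 as each sample was left out. Without the filter, the edgeR fit put Trib3 at -0.78 with an adjusted p of 0.630, so this low gene does not pass a test over all genes. For Hyou1 the exact permutation p was 0.0736, with 64.1 ± 10.5 CPM (n = 5) against 51.7 ± 9.43 CPM (n = 6).

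The second comparison, CHEMO FO versus CHEMO STD, asks what the fish oil diet changed under chemotherapy. Of the 9 genes tested, 8 were higher with fish oil and 1, Ddit3, was lower by 0.04. Their median log2 fold change was 0.20 against -0.01 over all genes. None was called (0 genes), against 1.66% of all genes tested, because none passed both thresholds. Atf4 (0.43 ± 0.183) and Hyou1 (0.44 ± 0.181) had unadjusted edgeR p values of 0.0283 and 0.0243 with changes below 1.5-fold, and both had an adjusted p of 0.974. Pdia4 was 0.44 ± 0.230 higher, Chac1 0.52 ± 0.401, Herpud1 0.20 ± 0.126, Xbp1 0.17 ± 0.165, Asns 0.15 ± 0.564 and Atf6 0.06 ± 0.137.

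Most of these differences shrank without CHEMO FO 18. Atf4 went from 0.43 to 0.19, Hyou1 from 0.44 to 0.25, Pdia4 from 0.44 to 0.14 and Chac1 from 0.52 to 0.36. Atf6 went to -0.07, Asns to -0.11 and Ddit3 to 0.01. Herpud1, which was not raised in that library, kept its difference at 0.22. The median over the 9 genes was then 0.14. The unadjusted edgeR p values without it were 0.0509 for Atf4 and 0.0719 for Hyou1.

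Atf4 gave the lowest p of this comparison in the permutation tests. With all samples its mean log2 CPM was 0.35 higher in CHEMO FO (exact permutation p = 0.0150 over 3003 arrangements), and without CHEMO FO 18 it was 0.19 higher with a smaller p (exact permutation p = 0.0035 over 1716 arrangements). The p without each other sample ran up to 0.0901. Of the 7 remaining fish oil samples, 276 to 316 CPM, all lay above 5 of the 6 CHEMO STD samples, and CHEMO STD 5 (287 CPM) lay among them. The size of this difference, 291 ± 13.5 CPM (n = 7) against 256 ± 19.2 CPM (n = 6), is below 1.5-fold.

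Herpud1 was 0.22 higher on the log2 scale (exact permutation p = 0.0463), at 136 ± 12.7 CPM (n = 8) against 118 ± 19.04 CPM (n = 6). Leaving out 1 sample at a time gave p values of 0.0070 to 0.11, and 0.0513 without CHEMO FO 18. For Hyou1 the difference was 0.39 (exact permutation p = 0.0546), and without CHEMO FO 18 it was 0.26 (exact permutation p = 0.0752). None of the 10 genes had ranges that did not overlap in this comparison, and 0.0683% of all genes tested did.

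CHEMO FO versus TUMOUR STD sets chemotherapy with fish oil against no chemotherapy, and it shares its samples with the other comparisons. Again no gene of the 9 tested was called (0 genes), where 3.6% of all genes tested were. Of the 9, 7 were higher and 2 lower, with a median of 0.16 against 0.00 over all genes, and without CHEMO FO 18 the median was -0.00. Chac1 was highest, at 0.80 ± 0.430 (edgeR adjusted p = 0.571), followed by Atf4 at 0.35 ± 0.193, Pdia4 at 0.23 ± 0.240, Ddit3 and Herpud1 at 0.16 each and Hyou1 at 0.13 ± 0.188. Xbp1 (0.05), Atf6 (-0.05) and Asns (-0.19) were near or below 0. With CHEMO FO 18 left out, Atf4 was 0.12, and Pdia4 (-0.059), Hyou1 (-0.053) and Xbp1 (-0.0038) turned to the other side of 0. Ddit3 (0.22) and Herpud1 (0.18) were then a little higher, Atf6 was -0.18 and Asns -0.44.

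The Chac1 difference depended on single samples. Without CHEMO FO 17 it was 0.46, without TUMOUR STD 11, the sample with 6.13 CPM, it was 0.55, and without CHEMO FO 18 it was 0.67. Without CHEMO FO 13 or CHEMO FO 20 it passed both thresholds, at 0.94 and 0.92. Trib3 was lower by 0.79 on the log2 scale (exact permutation p = 0.0645). For Atf6 the difference with all samples was -0.082 (exact permutation p = 0.65). Without CHEMO FO 18 it was -0.18 (exact permutation p = 0.0303, unadjusted edgeR p = 0.0871). That permutation p was the lowest as each sample was left out, and the highest was 0.871. No range of the 10 genes was free of overlap, against 0.324% of all genes tested.

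**Figure D2:**
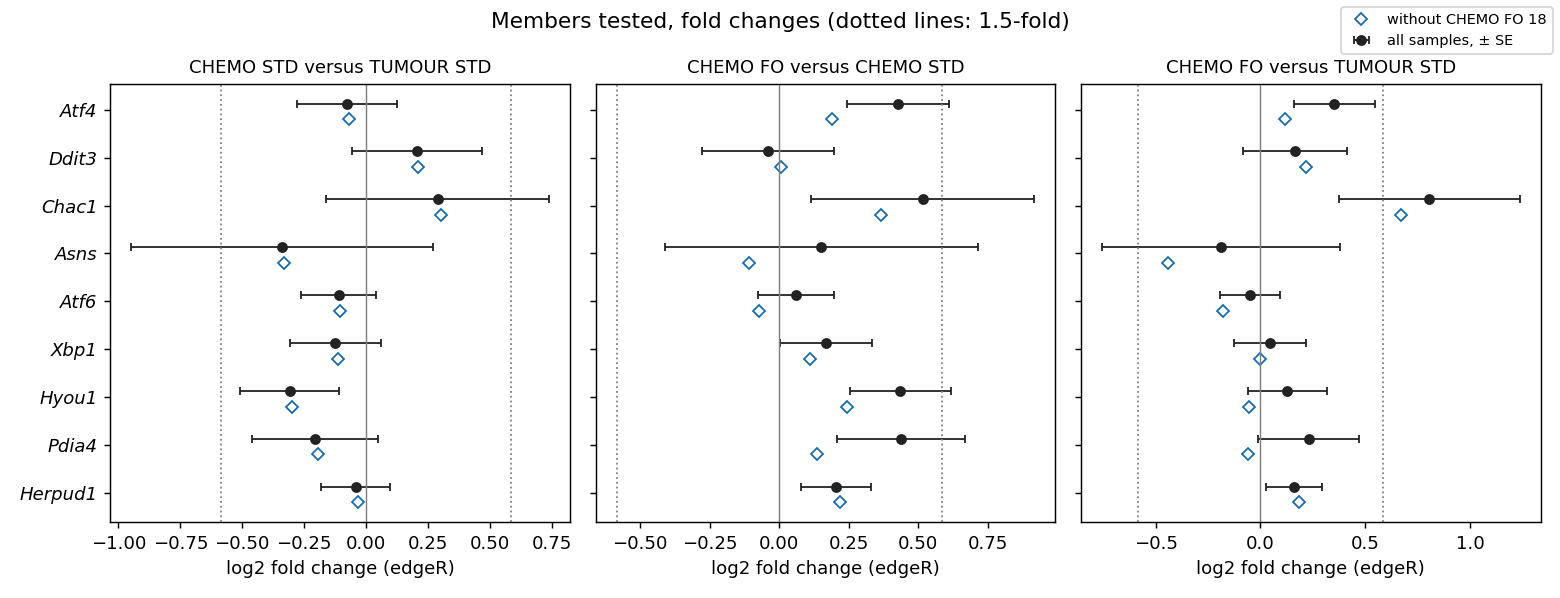
Points show the edgeR log2 fold change of the 9 genes tested, with bars of ± 1 SE, in each comparison, and diamonds the value without CHEMO FO 18. Dotted lines mark 1.5-fold. With fish oil against CHEMO STD the diamonds of Atf4, Hyou1 and Pdia4 lie nearer to 0 (0.19, 0.25 and 0.14) than the points (0.43, 0.44 and 0.44), and Herpud1 does not shift.

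Across all 3 comparisons and all genes, no gene passed an adjusted p of 0.05 by edgeR (0 genes, with 762, 527 and 1059 at an unadjusted p below 0.05), and DESeq2 gave 0, 0 and 11.

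How the genes varied together from rat to rat was examined after subtracting each group's mean, over 19 samples and 36 pairs of the 9 genes tested. Of the pairs, 26 had a positive Pearson r. With permutation p values adjusted over the pairs, Hyou1 and Pdia4 went together (r = 0.86, adjusted permutation p = 0.0191, and rho = 0.70, adjusted permutation p = 0.0322), as did Xbp1 and Hyou1 (r = 0.68, adjusted permutation p = 0.0323, and rho = 0.68, adjusted permutation p = 0.0322). Xbp1 and Pdia4 passed by r (0.67, adjusted permutation p = 0.0323) and not by rho (0.57, adjusted permutation p = 0.103). Xbp1 and Herpud1 passed by rho (0.69, adjusted permutation p = 0.0322) and not by r (0.64, adjusted permutation p = 0.0527). Xbp1 is a known regulator of the ER folding genes, and its part in these correlations was not tested.

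These 4 pairs held without CHEMO FO 18, with r of 0.67 for Hyou1 and Pdia4, 0.71 for Xbp1 and Hyou1, 0.74 for Xbp1 and Pdia4 and 0.71 for Xbp1 and Herpud1. Each then had an adjusted permutation p below the threshold, from 0.0323 to 0.0481. Leaving out the 2 samples farthest from the median of the first gene gave r of 0.73, 0.75, 0.70 and 0.59 in the same order. Within CHEMO STD the r were 0.47, 0.47, 0.75 and 0.86 (n = 6), and within CHEMO FO 0.98, 0.74, 0.69 and 0.18 (n = 8), the last of which was the lowest of these values.

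No pair with Atf4 passed the threshold. Its r with Hyou1, Pdia4 and Atf6 was 0.65, 0.76 and 0.75 over 19 samples, and -0.18, 0.09 and -0.05 without CHEMO FO 18, so those relations rested on 1 library. With Chac1, Asns and Ddit3, which ATF4 is known to induce, the r was 0.21, 0.32 and -0.12 (permutation p = 0.418, 0.171 and 0.624). Ddit3 ran against Xbp1 (r = -0.59) and Herpud1 (r = -0.60), each with an adjusted permutation p of 0.0846, and against Chac1 (r = -0.50, adjusted permutation p = 0.151). Without CHEMO FO 18 these 3 were -0.59, -0.62 and -0.49.

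**Figure D3:**
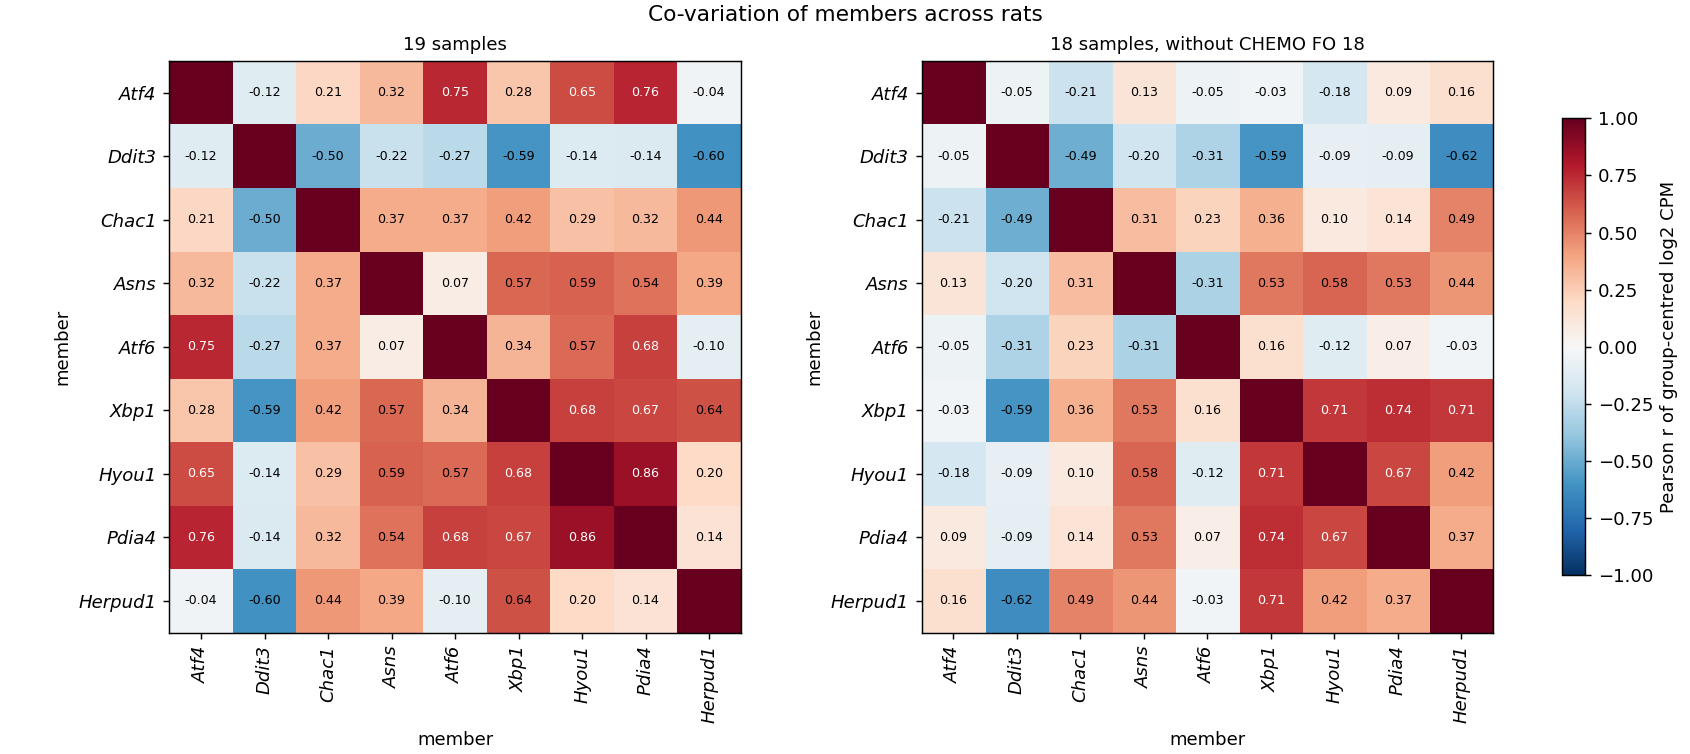
The grids give Pearson r of log2 CPM, centred on each group's mean, for each pair of the 9 genes tested, over 19 samples (left) and without CHEMO FO 18 (right), on a colour scale from -1 to 1. The block of Xbp1, Hyou1 and Pdia4 is red in both (0.67 to 0.86 and 0.67 to 0.74), while the row of Atf4 pales without that library (Pdia4 0.76 to 0.09).

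By likeness of pattern alone, over the same 19 group-centred samples and with no test, the genes nearest to each of the 9 genes tested were these (samples of a library share its depth and RNA quality). Atf4 lay nearest to Zwint (r = 0.96) and Psmd4 (0.95), and without CHEMO FO 18 to Spcs1 (0.86) and Ubqln1 (0.79). Pdia4 lay nearest to Ctsb (0.93) and Ugdh (0.91), and Hyou1 to Pwp2 (0.90) and Ctsb (0.90). Xbp1 lay nearest to Rela (0.93) and Reck (0.91), and Herpud1 to Zbtb45 (0.89) and Supt5h (0.89). Chac1 lay nearest to Pdk4 (0.84) and Cpt1a (0.82), and Atf6 to Ampd3 (0.92) and Psmd11 (0.91). Asns lay nearest to LOC100360087 (0.87) and Ftl1 (0.87), and Ddit3 to Tmem123 (0.79) and Tmem141 (0.78). Without CHEMO FO 18 other genes were nearest to Hyou1 (Pltp 0.91, Actb 0.91), Pdia4 (Sord 0.88, Fcgrt 0.87) and Atf6 (Thada 0.88, Kcnma1 0.83). Asns and Herpud1 kept both of theirs, and Xbp1, Chac1 and Ddit3 kept Rela, Pdk4 and Tmem123. Of the 50 nearest genes with all samples, 0 to 5 were among the members or listed pathway genes, which make up 0.828% of the genes tested. Without CHEMO FO 18 this count went from 3 to 0 for Hyou1, from 4 to 2 for Pdia4 and from 5 to 0 for Atf6. For Atf4 the 5 were Ppp1r15a, Hspa5, Pdia3, Xpot and Hsp90b1, and without CHEMO FO 18 it was Mthfd2 alone.

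The summed levels of marker genes moved with some members, in relations looked at after the data were seen (27 relations, 9 genes with 3 marker lists). Hyou1 (r = 0.82), Pdia4 (r = 0.77) and Xbp1 (r = 0.65) went with the 8 macrophage markers, each with an adjusted permutation p below 0.05 (0.0213, 0.0473 and 0.0473; rho 0.71, 0.65 and 0.72, adjusted permutation p = 0.0286, 0.0404 and 0.0286). Without CHEMO FO 18 the r were 0.64, 0.49 and 0.64, and without CHEMO STD 1 and 2 and CHEMO FO 18 they were 0.59, 0.38 and 0.56. With the 6 fibroblast markers, Xbp1 (r = 0.61) and Herpud1 (r = 0.62) had an adjusted permutation p of 0.0606 each. The fibroblast r without CHEMO FO 18 were 0.79 for Xbp1, 0.63 for Herpud1, 0.68 for Hyou1 (0.18 with it) and 0.61 for Pdia4 (0.079 with it). With the 7 muscle fibre markers, Herpud1 had an r of 0.50 (adjusted permutation p = 0.0606), Xbp1 0.13 and Hyou1 -0.38. These were 0.73, 0.72 and 0.62 without CHEMO FO 18, so the sign for Hyou1 rested on this library. The macrophage r of Herpud1 was 0.41 with it and 0.68 without it. The part of cell makeup in the levels of these genes was not tested.

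Beyond these 10, 96 other genes of the pathway were followed in 6 lists, of which 88 passed the filter. After chemotherapy on the control diet none of the 88 was called (0 genes), against 2.38% of all genes tested. Of the 88, 34 had a fold change above 0 and 54 below it. In 9 of the 19 fits that each left out 1 sample, 1 to 4 of them were called, Psat1 in 7. The fit with 4, without CHEMO STD 1 and 2, called 603 of all genes, against 279 with all samples. In CHEMO FO versus CHEMO STD 61 were higher and 27 lower, and 1 was called, Ppp1r15a. The split without CHEMO FO 18 was 46 higher and 42 lower, and the 1 gene called was Slc7a1. Against TUMOUR STD the fish oil samples were higher in 55 and lower in 33, and 3 were called, Cebpb higher and Slc7a1 and Slc1a4 lower. It was 39 higher and 49 lower without CHEMO FO 18, with Slc7a1 and Slc1a4 called. With all samples, the genes called in the 2 fish oil comparisons were 1.14% and 3.41% of those followed, near the 1.66% and 3.6% of all genes. Of all genes tested, 49.7%, 48.7% and 50.4% were higher in the 3 comparisons.

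Ppp1r15a, which encodes the phosphatase subunit GADD34 that restores translation, rose with fish oil against CHEMO STD by 0.72 ± 0.303 (edgeR adjusted p = 0.974). Its levels were 31.6 to 47.0 CPM in CHEMO STD (median 39.9) and 40.3 to 199 CPM in CHEMO FO (median 45.1). CHEMO FO 18 held the 199 CPM, against a mean of 45.8 CPM in the other 7. Without this library the difference was 0.21 and Ppp1r15a was no longer called, and without CHEMO STD 6 the call was also lost, at 0.67.

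Cebpb, a leucine zipper partner of ATF4, rose in CHEMO FO against TUMOUR STD by 0.74 ± 0.319 (edgeR adjusted p = 0.524). It measured 13.2, 13.0, 24.4, 15.8 and 23.9 CPM in TUMOUR STD and 14.4 to 58.8 CPM in CHEMO FO (median 25.1). The 58.8 CPM was again CHEMO FO 18, and without it the difference was 0.53 and was not called. The call was lost as well without TUMOUR STD 8 (0.67), TUMOUR STD 9 (0.64), TUMOUR STD 11 (0.70) or CHEMO FO 17 (0.64).

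Slc7a1, a carrier of cationic amino acids, fell by 1.17 in the same comparison (SE 0.321, edgeR adjusted p = 0.487). Its counts were low, from 22 to 65 per sample in TUMOUR STD and from 3 to 36 in CHEMO FO. It measured 3.81, 2.88, 6.30, 4.36 and 5.13 CPM in TUMOUR STD and 0.757 to 3.26 CPM in CHEMO FO (median 1.72). The ranges overlapped through TUMOUR STD 9 alone. Without CHEMO FO 18 the fall was larger, by 1.36 on the log2 scale. Against CHEMO STD, Slc7a1 was called without CHEMO FO 18 (-0.80), and also without CHEMO STD 4, CHEMO STD 5 or CHEMO FO 16, but not with all samples (-0.61, edgeR adjusted p = 0.974). Slc1a4, a carrier of small neutral amino acids, fell by 0.80 in CHEMO FO versus TUMOUR STD (SE 0.303, edgeR adjusted p = 0.499). Its call was lost without TUMOUR STD 10, where it was highest at 9.50 CPM, with a difference of -0.55. Slc1a4 counts were also low, from 22 to 98 per sample in TUMOUR STD and from 11 to 24 in CHEMO FO.

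None of the sensors and chief effectors named next was called, except Cebpb above. Hspa5, which encodes the ER chaperone BiP and is the usual marker of the response, measured 218 ± 19.4 CPM (n = 5) in TUMOUR STD, 225 ± 17.6 CPM (n = 6) in CHEMO STD and 258 ± 132 CPM (n = 8) in CHEMO FO. In CHEMO FO 18 it reached 583 CPM, and the other 7 averaged 211 CPM. Against CHEMO STD its fold change was 0.20 ± 0.20, and -0.08 without that library.

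The IRE1 gene Ern1 differed by -0.29 ± 0.149 in CHEMO STD versus TUMOUR STD and by 0.14 ± 0.135 with fish oil. Eif2ak3, which encodes PERK, differed by -0.07 ± 0.171 and -0.20 ± 0.156 in the same comparisons. Atf3, a stress factor downstream of ATF4, differed by 0.27 ± 0.445 and 0.25 ± 0.397. Psat1, of serine synthesis, differed by -0.91 ± 0.440 in CHEMO STD versus TUMOUR STD (edgeR adjusted p = 0.719) and by 0.14 ± 0.427 with fish oil. Psat1 was called in CHEMO STD versus TUMOUR STD in 7 of the fits that left out 1 sample, farthest from 0 at -1.27 without CHEMO STD 1 and 2. It was nearest to 0, at -0.49 and not called, without TUMOUR STD 10, where its level was highest at 5.72 CPM. Without CHEMO FO 17, CHEMO FO 19 or CHEMO FO 20, which are outside this comparison, it was called at -0.90 each time. The unadjusted edgeR p values there were 0.04999, 0.0490 and 0.0403, close to the threshold. Psat1 counts were low, from 1 to 59 per sample. The fish oil differences without CHEMO FO 18 were 0.14 for Ern1, -0.22 for Eif2ak3, 0.16 for Atf3 and 0.18 for Psat1. In CHEMO FO 18 Ern1 was 9th, Eif2ak3 10th and Psat1 11th of 19, none of them near the top. The secreted factors Gdf15 and Fgf21 were under the filter, with 0.969 and 0.305 CPM at most and counts of 0 in 7 and 14 of the 19 samples.

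By list, the fish oil comparison with CHEMO STD was higher for most ER folding factors (16 of 21, median 0.15) and tRNA synthetases (12 of 13, median 0.22) and lower for most amino acid genes (10 of 15, median -0.11), with 0 called in each with all samples. The ER-associated degradation genes were higher in 13 of 16 (median 0.08) and the sensors and transducers in 8 of 14 (median 0.02). The median over all genes was -0.01. The 9 ATF4-pathway regulators and secreted factors had a median of 0.25, with 7 higher. Without CHEMO FO 18 the median of the ER folding factors was -0.10, that of the tRNA synthetases 0.08 and that of the regulators 0.05. That of the amino acid genes was -0.16, with Slc7a1 called. The medians of the degradation genes and of the sensors and transducers were then 0.06 and 0.04.

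In CHEMO STD versus TUMOUR STD the amino acid genes (12 of 15 lower, median -0.11), tRNA synthetases (11 of 13 lower, median -0.06) and sensors (11 of 14 lower, median -0.12) were below 0, and the ER folding factors (13 of 21 higher, median 0.04) were not. The amino acid median ran from -0.27 without CHEMO STD 1 and 2 to -0.033 without TUMOUR STD 10. The amino acid genes were also lower in CHEMO FO versus TUMOUR STD (11 of 15, median -0.25), where 2 were called. In that comparison their median ran from -0.30 without CHEMO FO 18 to -0.18 without TUMOUR STD 10, with 1 called in the latter fit. These medians are descriptions, and the lists were chosen with results of these data known.

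**Figure D4:**
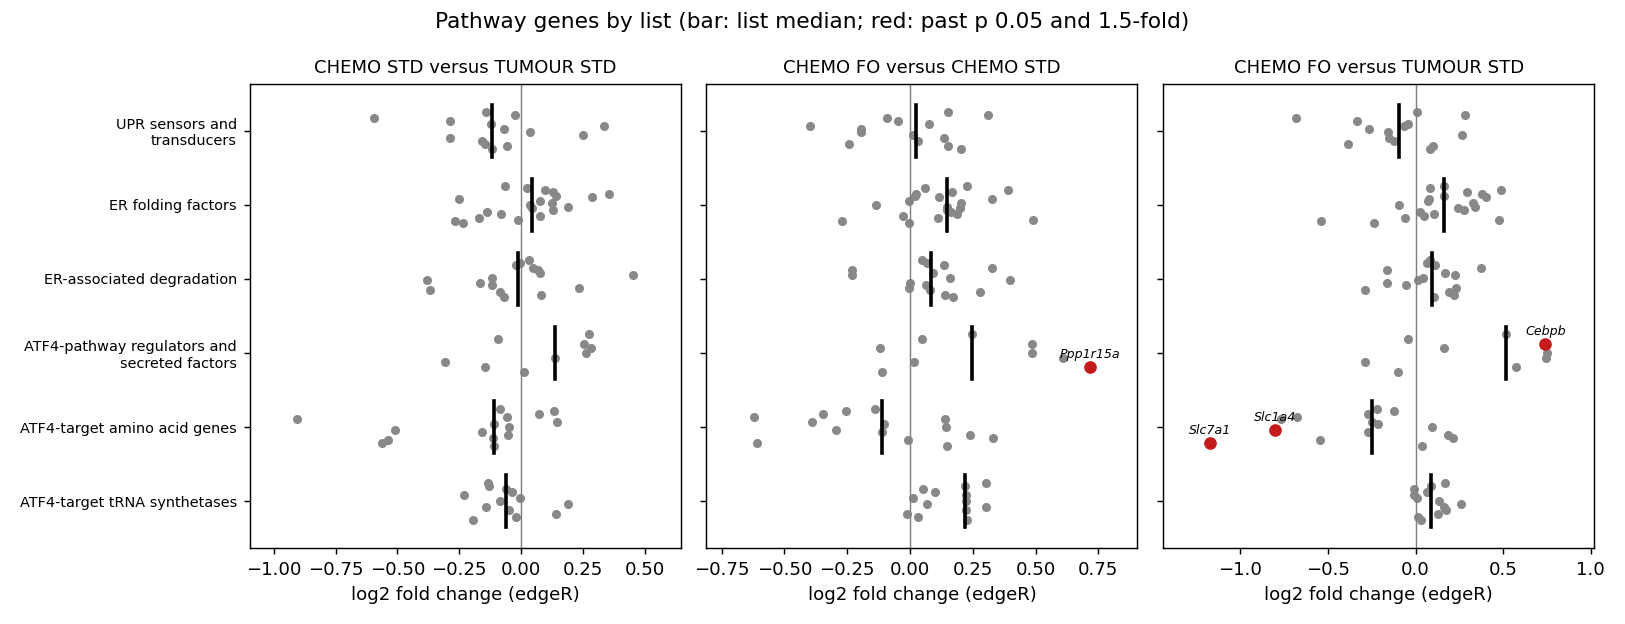
Each point is a gene of the 6 lists at its edgeR log2 fold change in a comparison, black bars are list medians, and larger red points with names are genes called. The called genes are Ppp1r15a (0.72) with fish oil against CHEMO STD, and Cebpb (0.74), Slc1a4 (-0.80) and Slc7a1 (-1.17) against TUMOUR STD.

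CHEMO FO 18 was highest for 4 of the 9 genes tested (44.4%), against 18.6% of all genes. It was also highest for 14 of 21 ER folding factors (66.7%), 9 of 13 tRNA synthetases (69.2%), 7 of 16 degradation genes (43.8%) and 4 of 9 regulators (44.4%), and for 3 of 15 amino acid genes (20%) and 4 of 14 sensors and transducers (28.6%). In this library Atf4, Hspa5, Hyou1, Pdia4, Atf6, Ppp1r15a and Cebpb were all at their highest of 19 samples. Only CHEMO FO 17 passed it in Chac1, and Xbp1 (72.2 CPM) and Asns (4.08 CPM) were also in its upper range, each behind 2 other samples. Ddit3, Trib3 and Herpud1 were not raised. The same library had high macrophage and low muscle fibre marker levels, and their part in the raised genes was not tested. Without CHEMO FO 18 the macrophage r was 0.06 for Atf4, -0.03 for Atf6, 0.64 for Hyou1 and 0.49 for Pdia4. The muscle fibre r was then 0.21, -0.06, 0.62 and 0.44 in the same order. Hspa5, Ppp1r15a and Cebpb were not compared with the marker lists. The labels give no reason for this library to differ from the other 7 of its group.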

How the data were processed

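Gastrocnemius RNA of 20 libraries was sequenced by the authors from stranded, rRNA-depleted total RNA. The authors trimmed the read pairs (Trim Galore 0.4.1), aligned them to the rat genome Rnor 6 (TopHat2 2.0.10 with Bowtie2, versions from the submitters' processing notes) and deposited unnormalised counts per gene. The sources used here give no counting settings for strand or for reads that fit several genes. Of the 32883 rows in the table, 388 without a gene name (0.102% to 0.272% of a library's counts) were left out.

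Counts were fitted in R 4.3.3 with edgeR 4.0.16 (filterByExpr with minimum count 10 and minimum total 15, TMM, quasi-likelihood test, all 3 groups together), with CHEMO STD replicates 1 and 2 summed. Adjusted p values are Benjamini-Hochberg over all 11716 genes tested. Replicates are labelled as separate samples, and nothing in the labels states that each is a separate animal, so p values measure the spread between these samples. Exact permutation tests used log2 CPM with a prior count of 2, and correlations 100000 permutations within groups. Alternatives were RLE factors, library totals, other filters, DESeq2 1.42.0, limma 3.58.1 voom with quality weights, replicates 1 and 2 kept apart or only the first kept, only the 2 groups compared in the fit, no fold threshold, a prior count of 0.5, the 2 samples farthest from the median left out, and each sample left out in turn. Correlations with marker lists, and correlations without CHEMO FO 18, were added after seeing the data. The scripts were tested on simulated counts.

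The members, pathway lists and tests were chosen with earlier results of these data known. By rule, the text names all 10 members, pathway genes that were called (at most 3 by list and direction), Hspa5, Ern1, Eif2ak3, Atf3, Cebpb, Gdf15, Fgf21 and Psat1, and for each member the 2 genes with the most similar pattern. Promoter sequences are RefSeq's for GRCr8, and no coordinate of the counting build was used. Among marker lists not used above, 7 colon epithelium genes summed to 0.907 to 4.71 CPM, except 17.1 CPM in TUMOUR STD 10, and 6 T cell markers to 0 to 2.42 CPM, except 22.6 CPM in CHEMO STD 7. Figures were drawn with matplotlib 3.10.9.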

Additional observations from a re-analysis of the deposited data

Results flagged for a closer look

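Each gene's level in each group was checked for a sample whose gap to its nearest neighbour, as a share of the group's range, passed Dixon's 95% critical ratio. Of 30 checks, 5 did, where chance gives about 1 in 20, and 4 of the 5 were the same library. CHEMO FO 18 stood beyond it for Atf4 (718 CPM against 276 to 316 in the other 7 samples of its group), Hyou1 (129 CPM against 46.4 to 69.9), Pdia4 (99.4 CPM against 25.5 to 42.4) and Atf6 (101 CPM against 49.6 to 62.0). The fifth was Xbp1 in CHEMO STD, where the summed replicates 1 and 2 measured 73.0 CPM and the other 5 samples 43.1 to 47.9 CPM. CHEMO STD 1 and 2 also had the highest fibroblast marker sum of its group, 11178 CPM against 2298 to 5418 CPM, and the part of this in the Xbp1 level was not tested.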

How the results depend on the processing

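No paired analysis was possible because the labels pair no samples across the 3 groups (replicates 1 to 7, 8 to 12 and 13 to 20). The paper states that rats were assigned to the groups at random. Among the members, depth limits Trib3 and Asns most, with as few as 0 and 1 counts in a sample. The count of members called stayed at 0 in each comparison under every other setting, except that without a fold threshold 2 were called in CHEMO FO versus CHEMO STD (Atf4 and Hyou1), and that in CHEMO FO versus TUMOUR STD the count ran from 0 to 1 as samples were left out (Chac1, without CHEMO FO 13 or 20). Of the 88 other pathway genes, 0 to 4, 0 to 2 and 2 to 5 were called in the 3 comparisons as samples were left out. The number of all genes called was 279, 195 and 422 in the 3 comparisons, 971, 722 and 1116 without the filter, and 762, 527 and 1059 without the fold threshold. It ran from 161 to 603, 153 to 266 and 273 to 584 as samples were left out, lowest without TUMOUR STD 10, CHEMO STD 7 and CHEMO FO 18. In the first comparison it was highest without CHEMO STD 1 and 2, and also over 1.5 times higher without TUMOUR STD 8 (529) or TUMOUR STD 11 (450.0), and the share higher went from 39.1% to 51.6% without TUMOUR STD 8 or TUMOUR STD 10. Of the genes called in CHEMO FO versus CHEMO STD, 36.9% were higher, against 23.4% by limma voom, 54.3% without the fold threshold and 15.9% without CHEMO FO 18. In CHEMO FO versus TUMOUR STD it was 30.3%, against 41.2% without the fold threshold and 40.8% without TUMOUR STD 10.

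The median of all genes stayed within 0.1 of 0 in every setting. Where the sign of a difference turned, neither value was called, and the causes were not tested. With limma voom and quality weights, Asns was 0.017 and Herpud1 0.018 in CHEMO STD versus TUMOUR STD, Hspa5 -0.078, Atf3 -0.018, Ddit3 0.048 and Atf6 -0.078 in CHEMO FO versus CHEMO STD, and Asns 0.52 in CHEMO FO versus TUMOUR STD. With CHEMO STD 1 and 2 kept apart, Herpud1 was 0.016 in the first comparison and Ddit3 0.021 in the second. As samples were left out in CHEMO STD versus TUMOUR STD, the log2 fold change ran from -0.13 to 0.048 for Eif2ak3, from -0.13 to 0.57 for Atf3, from -0.044 to 0.40 for Cebpb, from -0.88 to 0.50 for Asns and from -0.11 to 0.066 for Herpud1. In CHEMO FO versus CHEMO STD it ran from -0.084 to 0.26 for Hspa5, from -0.15 to 0.52 for Psat1, from -0.16 to 0.067 for Ddit3, from -0.11 to 0.70 for Asns and from -0.073 to 0.12 for Atf6. In CHEMO FO versus TUMOUR STD it ran from -0.034 to 0.31 for Hspa5, from -0.022 to 0.15 for Xbp1, from -0.47 to 0.65 for Asns, from -0.053 to 0.22 for Hyou1 and from -0.059 to 0.33 for Pdia4.

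The differences in mean log2 CPM behind the permutation tests turned in the same way. They ran from -0.67 to 0.095 for Asns, from -0.087 to 0.66 for Chac1 and from -0.11 to 0.065 for Herpud1 in CHEMO STD versus TUMOUR STD. In CHEMO FO versus CHEMO STD they ran from -0.20 to 0.053 for Ddit3, from -0.061 to 0.58 for Asns, from -0.18 to 0.19 for Trib3 and from -0.073 to 0.086 for Atf6. In CHEMO FO versus TUMOUR STD they ran from -0.033 to 0.13 for Xbp1, from -0.43 to 0.33 for Asns, from -0.059 to 0.16 for Hyou1 and from -0.067 to 0.21 for Pdia4. Correlations whose sign turned as samples were left out were those of Atf4 with Xbp1 (-0.028 to 0.36), Chac1 (-0.21 to 0.41), Herpud1 (-0.11 to 0.16), Hyou1 (-0.18 to 0.72) and Atf6 (-0.051 to 0.85), and those of Atf6 with Asns (-0.31 to 0.23) and Hyou1 (-0.12 to 0.70). Without the 2 samples farthest from the median, the r of Atf4 was -0.053 with Xbp1, -0.23 with Chac1, 0.23 with Herpud1, -0.32 with Hyou1, -0.064 with Pdia4 and -0.052 with Atf6. The 3 pairs among Xbp1, Hyou1 and Pdia4 stayed positive, from 0.59 to 0.91.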
